A study of Mus musculus with 12 samples.

Results

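Small nucleolar RNAs (snoRNAs) were examined in RNA-seq data from the brains of Nsd2 KO and WT mouse embryos at stage E15.5. Members were the genes whose symbol begins with Snora or Snord and a number and that reached at least 10 counts in at least 3 of the 12 libraries. This left 43 of the 122 such genes in a table of 46078 genes, 23 of 40 Snora and 20 of 82 Snord genes. The counts themselves therefore chose the members, and their number of libraries above the threshold is a description.

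The Nsd2 KO embryos lack the entire coding sequence of Nsd2, which encodes a methyltransferase for dimethylation of histone H3 lysine 36, and were made with CRISPR/Cas9. The WT embryos carry no such deletion, and KO and WT mice were both kept on a C57BL/6 background. Each genotype and sex had 3 libraries, which are 3 KO females, 3 WT females, 3 KO males and 3 WT males. P-values measure the spread between these libraries. Total RNA of bulk brain tissue was depleted of ribosomal RNA (rRNA) and sequenced with a directional kit, so transcripts without a poly(A) tail were retained. In such bulk tissue, fewer cells of a type and less RNA per cell cannot be told apart.

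SnoRNAs are short RNAs of the nucleolus that mostly guide chemical modification of rRNA, and most are cut out of introns of a host gene. Box C/D RNAs (Snord genes) assemble with fibrillarin and guide 2′-O-methylation, whereas box H/ACA RNAs (Snora genes) assemble with dyskerin and guide pseudouridylation. A few act in cleavage of the rRNA precursor instead, such as Snora73 (U17), Snord22 (U22) and Snord118 (U8). Growing tissue, the embryonic brain included, depends on the ribosomes that these RNAs help to make.

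The families are told apart by short sequence boxes, and the sequences below are shown for the 1 member that passed the test between genotypes, for a member with a wide range among libraries, and for 1 pair of related copies in each family, Snord15a with Snord15b and Snora73a with Snora73b. They are the annotated RNAs in GENCODE release M21 on GRCm38, written as DNA 5′ to 3′. Capitals mark matches to the letters TGATGA (as in box C) and CTGA (as in box D) in box C/D RNAs. In box H/ACA RNAs they mark the ACA near the 3′ end. A marked stretch need not be the working box. Snord17 lies at chr2:144265979-144266216 on the minus strand in an intron of Snx5, and Snord22 at chr19:8725866-8725991 on the plus strand in Snhg1, a gene without a protein product. Snord15a at chr7:99482785-99482932 and Snord15b at chr7:99479563-99479707 both lie on the minus strand in Rps3, a ribosomal protein gene. Snora73a at chr4:132352775-132352979 and Snora73b at chr4:132352322-132352526 both lie on the minus strand in introns of Snhg3.
Snord17: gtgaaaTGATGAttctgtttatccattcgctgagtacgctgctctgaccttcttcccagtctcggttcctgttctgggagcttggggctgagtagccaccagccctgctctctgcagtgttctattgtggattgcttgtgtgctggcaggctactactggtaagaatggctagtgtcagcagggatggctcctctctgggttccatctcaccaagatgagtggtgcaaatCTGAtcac
Snord22: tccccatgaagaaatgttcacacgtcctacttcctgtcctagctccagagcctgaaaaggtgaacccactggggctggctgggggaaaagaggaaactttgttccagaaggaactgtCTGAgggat
Snord15a: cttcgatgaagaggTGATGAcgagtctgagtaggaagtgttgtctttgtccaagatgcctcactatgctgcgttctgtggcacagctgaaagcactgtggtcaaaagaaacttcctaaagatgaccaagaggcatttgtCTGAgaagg
Snord15b: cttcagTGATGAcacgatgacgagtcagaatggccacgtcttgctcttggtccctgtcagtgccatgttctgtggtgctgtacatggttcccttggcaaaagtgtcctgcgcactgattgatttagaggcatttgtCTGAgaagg
Snora73a: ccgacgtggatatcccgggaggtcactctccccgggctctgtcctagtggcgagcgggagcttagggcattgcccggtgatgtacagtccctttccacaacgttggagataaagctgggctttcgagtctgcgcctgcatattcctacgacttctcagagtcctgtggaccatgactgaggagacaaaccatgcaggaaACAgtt
Snora73b: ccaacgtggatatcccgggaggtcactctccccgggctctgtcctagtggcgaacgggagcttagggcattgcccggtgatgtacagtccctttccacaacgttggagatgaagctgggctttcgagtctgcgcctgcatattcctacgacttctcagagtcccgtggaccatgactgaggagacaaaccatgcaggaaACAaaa

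Only the sense strand was searched. CTGA stood in the last 20 bases of 20 of 20 box C/D members, against 3 of 22 box H/ACA members with an annotated snoRNA sequence. ACA stood in the last 10 bases of 21 of 22 box H/ACA members, against 3 of 20 box C/D members. TGATGA stood in the first 30 bases of 12 of 20 box C/D members and of 0 box H/ACA members, and Snord22 was among those without it. Over all genes of each family, kept or not, CTGA was found in 80 of 82 Snord genes (97.6%) and in 4 of 39 Snora genes (10.3%), and ACA in 8 of 82 (9.76%) and 37 of 39 (94.9%). The symbols and the boxes thus gave the same division in nearly all genes. A match is a description of these letters and not of a working site.

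Snora73a and Snora73b were identical at 198 of 205 aligned bases (96.6%), with 56 bases as their longest shared run, so reads could be assigned to either copy and their separate levels are uncertain. Snord15a and Snord15b were identical at 96 of 152 aligned positions (63.2%) and Snord49a and Snord49b at 50 of 74 (67.6%). The symbol Snora26 stood on 2 genes of the table. One is the snoRNA of 121 bases at chr5:74093530-74093650, and the other, 2347 bases at chr5:74093060-74095406, is annotated in GENCODE M21 as Dancr, the RNA gene that holds Snora26. It met the symbol rule, so it was retained and is called the Dancr-length Snora26 gene here.

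The share of genes kept was larger in the longer length classes. Of 59 genes under 90 bases, all box C/D, 10 were kept (16.9%), and of 18 genes from 90 to under 120 bases 5 were kept (27.8%). Of 38 genes from 120 to under 150 bases, 22 were kept (57.9%), and of 7 genes of 150 bases or more, 6 were kept (85.7%). Within 120 to under 150 bases, 4 of 4 box C/D genes and 18 of 34 box H/ACA genes were kept. Within each class under 150 bases, lengths of kept and other genes were close, with medians of 73 and 74 bases under 90 bases. At 150 bases or more the medians were 205 bases for kept genes and 178 bases otherwise, and the 6 kept include the Dancr-length Snora26 gene. Length and family are thus bound together below 120 bases, where no box H/ACA RNA lies, and the part of RNA extraction and library preparation in this pattern was not tested.

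**Figure D1:**
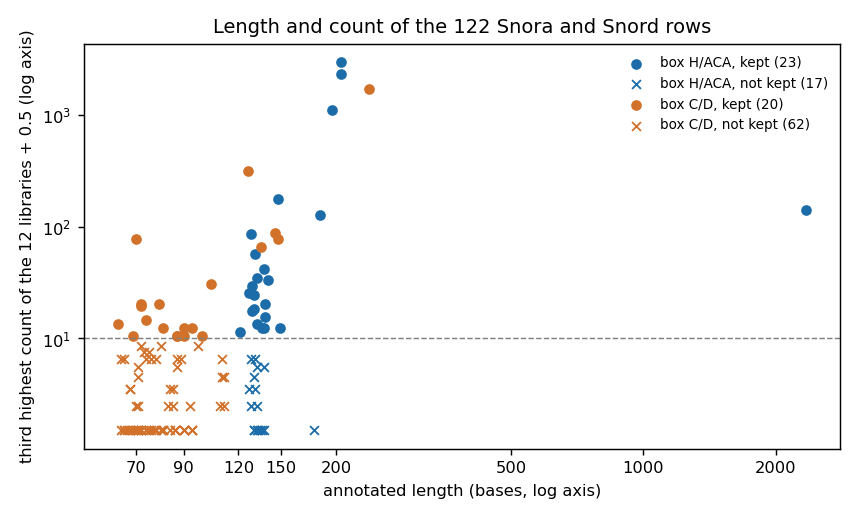
The third highest count among the 12 libraries plus 0.5 (log axis) against annotated length in bases (log axis) for the 122 genes, with kept genes as dots, genes not kept as crosses and the threshold of 10 counts as a dashed line. The 4 most counted genes are 196, 205, 205 and 238 bases long, and the point at 2347 bases is the Dancr-length Snora26 gene.

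The genes that were not kept carried a mark of the counting. In 34 of the 122 genes (27.9%) the deposited value was 1 in all 12 libraries, which held for 301 of all 46078 genes (0.653%), and 23 of these 34 were under 90 bases. None of the 122 was at 0 in all libraries. What a value of 1 in every library stands for was not tested. Just inside the threshold, Snord16a had 10 or more counts in 3 libraries (12, 10 and 5 in KO females, 7, 5 and 6 in WT females, 4, 2 and 5 in KO males, 6, 7 and 11 in WT males), and Snord35a and Snord35b also had 10 as the third highest count. Just outside, Snord65, Snord69 and Snord7 had 8 as the third highest count, with highest counts of 8, 12 and 9. Of the imprinted Snord clusters, Snord64, Snord107, Snord116l1 and Snord116l2 were in the table, and their highest counts were 1 or 2, so none was kept.

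Of the 43 members, 18 reached 10 counts in all 12 libraries, 12 in 6 to 11 libraries and 13 in 3 to 5 libraries. The short Snora26 reached it in KO libraries only (36 and 47 counts in KO females 1 and 2 and 11 in KO male 3), which fixes its direction by the rule, and 4 members reached it in female libraries only. Counts on members were few. They held 0.0259%, 0.0244% and 0.0170% of all counts in the KO females, against 0.0117%, 0.0131% and 0.0146% in the WT females. In males they held 0.00945%, 0.0162% and 0.0140% in the KO libraries, against 0.0124%, 0.00962% and 0.00919% in the WT libraries. The 3 KO females were above the 3 WT females, and KO male 1 lay below WT males 1 and 2. The means were 0.0224% ± 0.00479 in KO females and 0.0131% ± 0.00147 in WT females, and 0.0132% ± 0.00345 in KO males and 0.0104% ± 0.00177 in WT males (SD, n = 3 each). Box H/ACA members held 0.0168% ± 0.00310 in KO females and 0.0102% ± 0.00136 in WT females, and box C/D members 0.00560% ± 0.00169 in KO females and 0.00288% ± 0.000131 in WT females. No test was run on these sums, because the members were chosen by their counts.

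**Figure D2:**
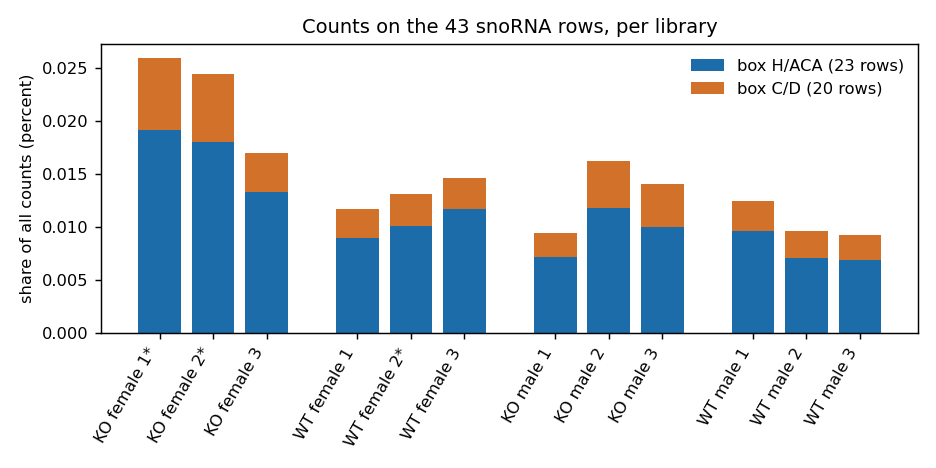
Percent of each library's counts on the 23 box H/ACA and 20 box C/D members, stacked, for KO females, WT females, KO males and WT males; asterisks mark the 3 female libraries high in rRNA. The highest bar is KO female 1 at 0.0259% and the lowest is WT male 3 at 0.00919%.

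Library totals ranged from 40398665 to 59304196 counts, and Nsd2 (Whsc1 in the tables) had 0.905 to 2.67 CPM in KO libraries, against 348 to 410 CPM in WT libraries. Levels are given as CPM, the counts scaled to a fixed library total, here with trimmed mean of M-values (TMM) scaling over the 12 libraries. The 5 neuronal markers Tubb3, Dcx, Map2, Stmn2 and Snap25 summed to 5113 to 5356 CPM in KO females, 5274 to 5672 in WT females, 5562 to 5670 in KO males and 5461 to 5602 in WT males, so markers of the labelled tissue were present in every library. Of these 5, of 5 radial glia, 6 erythroid, 3 microglia, 3 endothelial and 5 Hox genes of caudal neural tissue, 0 were called between genotypes by edgeR over both sexes and 0 by DESeq2. Without adjustment 1 neuronal marker was under 0.05 in edgeR, against 13.7% of all genes tested. The 5 Hox genes summed to 110.4 to 150.1 CPM in KO females 2 and 3, WT female 3 and WT males 2 and 3 and to 30.7 CPM in KO male 2, against 0.0853 to 2.17 CPM in the other 6 libraries. KO females 1 and 2 and WT female 2 stood apart in rRNA. The mitochondrial rRNAs mt-Rnr1 and mt-Rnr2 took 5.41%, 6.05% and 3.53% of their counts, against 0.782% to 1.24% in the other 3 female libraries and 1.07% to 1.70% in males. Their totals were also the lowest of the 12, and neither the version of the rRNA depletion kit nor the sequencer is given per library.

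KO was compared with WT over both sexes with sex as a term, in edgeR's quasi-likelihood test across 19768 genes with Benjamini-Hochberg adjustment. Of 43 members, 41 were tested, and 1 of them, Snord17, rose in KO brains while 0 fell, against 1.9% of all genes tested called, 0.374% higher and 1.52% lower. DESeq2 called 5 higher (Snord17, Snora73b, Snora74a, Snord15a and Snora73a) and 0 lower. The shares just given are those of edgeR and do not apply to these 5, and DESeq2's own share over all genes is not given here. Without adjustment, 13 of the 41 were under 0.05 in edgeR and all 13 were higher in KO, against 13.7% of all genes in either direction. The fold changes of 33 of 41 members (80.5%) were above 0, against 50.6% of all genes, with a median log2 fold change of 0.30 for members and 0.00 for all genes. The short Snora26, whose direction the member rule fixed, is among both the 13 and the 33. Members share libraries, and some share hosts or sequence, so these counts describe the members and were not tested as a group. Among the 18 members with 10 counts in all 12 libraries, 17 were above 0 and the median was 0.50. By family, 20 of 23 box H/ACA members were above 0 with a median of 0.40, and 13 of 18 box C/D members with a median of 0.14. With a threshold of 20 counts in 3 libraries the difference of these medians was -0.08, against 0.26 here. With 10 or more counts in 6 libraries it was smaller than here but still above 0. The order of the families thus depended on the count threshold.

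**Figure D3:**
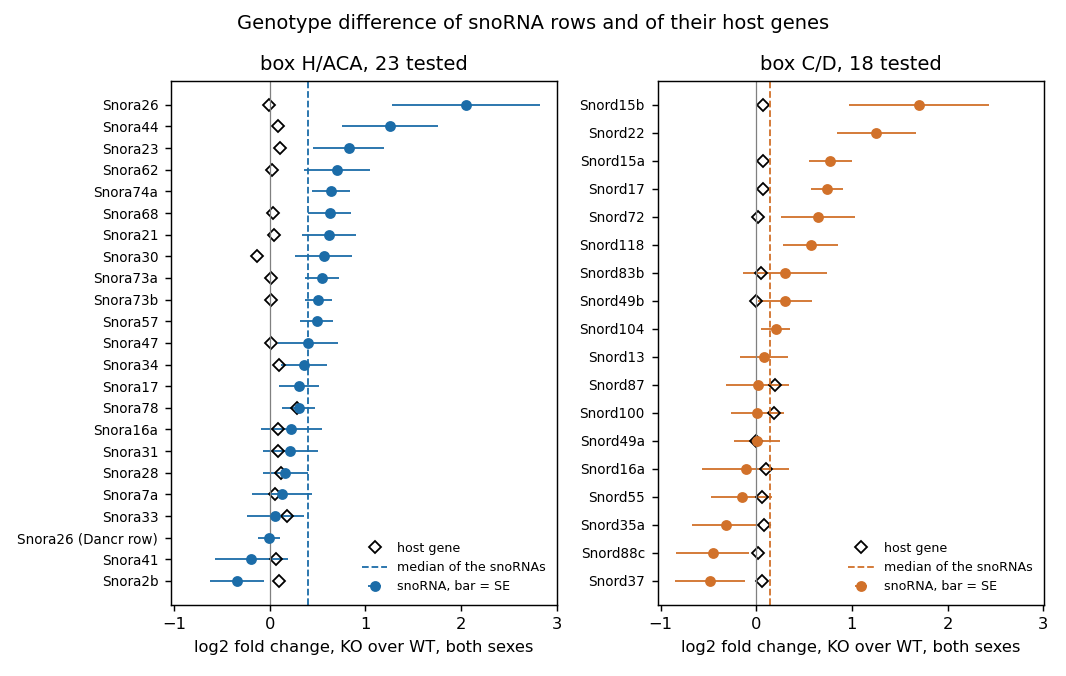
Log2 fold change of KO over WT in both sexes (dots, bars are SE) for the 23 tested box H/ACA and 18 tested box C/D members, with the host gene's value as an open diamond where a host was tested and the family's median as a dashed line. Of 27 distinct hosts, 25 lie right of 0, between -0.13 and 0.29 in all, and 33 of 41 members lie right of 0.

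Snord17, a long box C/D RNA, had 39.6, 40.3 and 25.6 CPM in KO females, against 18.9, 18.5 and 19.5 CPM in WT females. In males it had 16.2, 32.8 and 30.4 CPM in the KO libraries, against 18.9, 17.9 and 15.8 CPM in the WT libraries. All KO females were above all WT females, and KO males 2 and 3 were above all WT males, whereas KO male 1 was among them. The log2 fold change over both sexes was 0.74 ± 0.17 (SE, adjusted p = 0.0418, edgeR), and 5 of 6 KO libraries were above every WT library of their sex. The call was lost without KO female 1 (adjusted p = 0.0929 in edgeR), KO female 2 (0.0753), WT female 1 (0.100), WT female 2 (0.0925), WT female 3 (0.0992), KO male 2 (0.0795), KO male 3 (0.103), WT male 2 (0.0893) or WT male 3 (0.0812). Without the 3 libraries high in rRNA the log2 fold change was 0.54 (edgeR adjusted p = 0.211), and with them as a batch term 0.67 (edgeR adjusted p = 0.0755). Its host Snx5, a sorting nexin, had 52.0 ± 3.33 CPM in KO females and 46.6 ± 4.55 CPM in WT females, and 53.3 ± 2.30 CPM in KO males and 54.2 ± 2.45 CPM in WT males (SD, n = 3 each). Snx5 differed by 0.07 ± 0.06 (log2, SE, edgeR adjusted p = 0.694), and the difference between the snoRNA and its host was not itself tested.

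Other short RNAs varied between the libraries as well. Rny1 and Rny3, the RNAs of Ro particles, together had 35.5, 51.8 and 9.04 CPM in KO females, against 7.85, 11.7 and 19.4 CPM in WT females. In males they had 29.4, 87.3 and 47.6 CPM in the KO libraries, against 53.8, 29.8 and 17.8 CPM in the WT libraries. KO female 3 and KO male 1, the KO libraries with the lowest Snord17 of their sex, also had the lowest Rny level among the KO libraries of their sex. Across the WT libraries the Rny level ran from 7.85 to 53.8 CPM, with Snord17 at 15.8 to 19.5 CPM. Over both sexes Rny1 and Rny3 differed by 1.19 ± 0.47 and 0.88 ± 0.47 (log2, SE, edgeR adjusted p = 0.301 and 0.465). Both were higher in KO, so the Rny level is not free of genotype as a covariate. With the Rny level as a covariate the log2 fold change of Snord17 was 0.45 (edgeR adjusted p = 0.114), and with the summed level of the 5 Hox genes 0.74 (edgeR adjusted p = 0.0586), so the call was lost in both. The part of RNA recovery in the difference was not tested beyond these values.

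Snora73b and Snora73a, copies of U17, which acts in cleavage of the precursor of 18S rRNA, were the most abundant members per length, with 22.1 and 17.1 CPM per 100 bases over the 12 libraries. Snora73b had 81.7, 74.9 and 55.3 CPM in KO females, against 40.0, 41.1 and 49.8 CPM in WT females. Among males, levels were 28.8, 43.8 and 39.0 CPM in the KO libraries, against 36.9, 26.6 and 25.6 CPM in the WT libraries. KO and WT did not overlap in females and did in males, where KO male 1 was below WT male 1. The log2 fold change over both sexes was 0.51 ± 0.14 (SE, edgeR adjusted p = 0.105). It passed the threshold in edgeR without KO male 1 (adjusted p = 0.0443) and without WT male 1 (adjusted p = 0.0236), and in DESeq2's Wald test (adjusted p = 0.0123).

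Snora73a had 68.5, 62.7 and 40.8 CPM in KO females, against 25.7, 36.5 and 39.1 CPM in WT females. Its male levels were 21.1, 32.8 and 27.6 CPM in the KO libraries, against 27.8, 18.5 and 18.8 CPM in the WT libraries. The order of the libraries was thus much as for its copy, with no overlap in females. The part of shared reads in this likeness was not tested. The log2 fold change was 0.55 ± 0.18 (SE, edgeR adjusted p = 0.192). Their host Snhg3 had 6.16 ± 0.543 CPM in KO females and 5.51 ± 0.577 CPM in WT females (SD, n = 3 each) and differed by 0.02 ± 0.13 over both sexes (log2, SE, edgeR adjusted p = 0.978).

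Snora74a, a box H/ACA RNA of 196 bases on chromosome 18, had 23.6, 26.3 and 20.2 CPM in KO females, against 10.2, 12.5 and 14.1 CPM in WT females. Levels in males were 12.2, 28.1 and 21.1 CPM in the KO libraries, against 19.7, 13.0 and 15.3 CPM in the WT libraries. KO females were all above WT females, and KO male 1 was below all WT males. Over both sexes the log2 fold change was 0.64 ± 0.20 (SE, edgeR adjusted p = 0.159), and without KO male 1 it was 0.79 and past the threshold (edgeR adjusted p = 0.0145). Snora73a, Snora73b, Snora74a and Snord17 together held 82.8% of all counts on members, so the summed shares above mostly show these 4.

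Snord22 (U22), needed for processing of 18S rRNA, had 15.8, 12.4 and 3.78 CPM in KO females, against 2.34, 2.46 and 3.24 CPM in WT females. In males it had 2.16, 5.63 and 4.44 CPM in the KO libraries, against 3.98, 2.54 and 2.02 CPM in the WT libraries. KO females 1 and 2, both high in rRNA, were far above all other libraries, while WT female 2, also high in rRNA, was not. Over both sexes the difference was 1.25 ± 0.41 (log2, SE, edgeR adjusted p = 0.199). In females alone it was 1.99 ± 0.49 (SE, edgeR adjusted p = 0.465), and without KO female 3 it passed the threshold in females (log2 fold change 2.40, edgeR adjusted p = 0.0197).

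Snora57 had 4.68, 4.20 and 4.01 CPM in KO females, against 2.31, 2.24 and 2.46 CPM in WT females. The male values were 2.18, 2.41 and 2.17 CPM in the KO libraries, against 2.38, 1.44 and 2.49 CPM in the WT libraries. The KO females were all above the other 9 libraries, including KO female 3, which is low in rRNA, and the male groups overlapped. In females the log2 fold change was 0.88 ± 0.17 (SE, edgeR adjusted p = 0.283), and in males it was 0.10 ± 0.23 (SE, edgeR adjusted p = 0.897). The effect in males minus that in females was -0.78 ± 0.28 (log2, SE, edgeR adjusted p = 0.910).

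**Figure D4:**
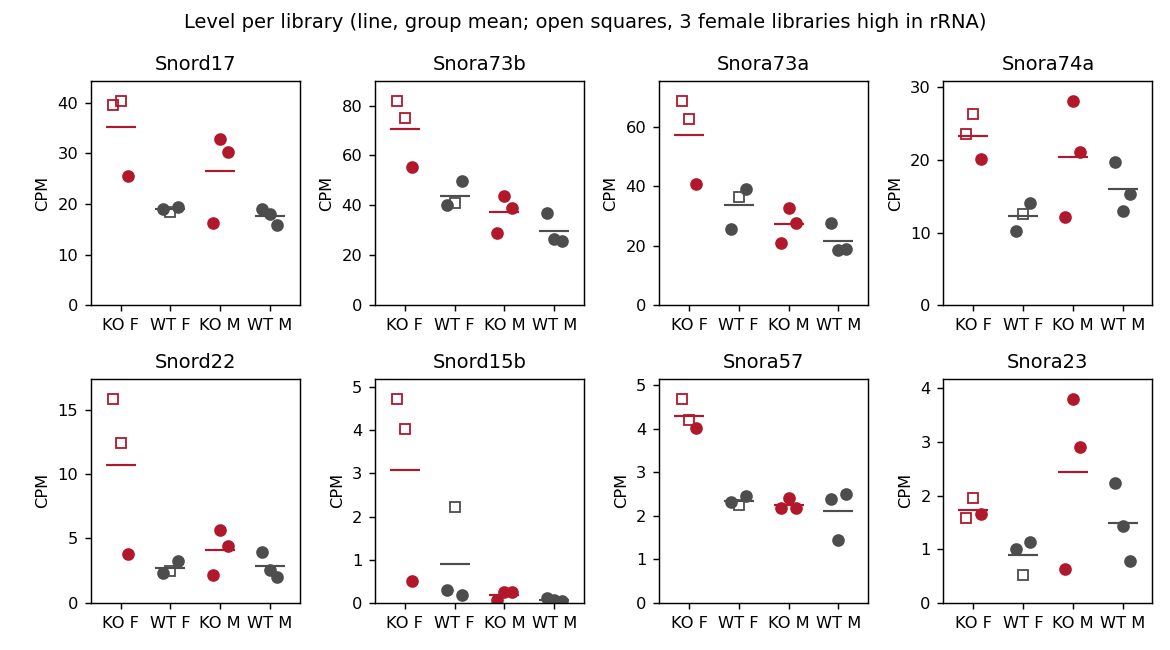
CPM per library of 8 members in KO females, WT females, KO males and WT males, with group means as lines and the 3 female libraries high in rRNA as open squares. In Snord22 the KO females 1 and 2 stand at 15.8 and 12.4 CPM, and in Snora57 the 3 KO females stand at 4.01 to 4.68 CPM, above the other groups.

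The pair of U15 copies, guides for 2′-O-methylation of 28S rRNA in a single host, varied to different degrees. Snord15a had 2.53, 2.22 and 1.44 CPM in KO females, against 0.945, 1.36 and 1.24 CPM in WT females. In males it had 0.567, 1.05 and 0.904 CPM in the KO libraries, against 0.710, 0.435 and 0.358 CPM in the WT libraries. KO females were above WT females without overlap, and the log2 fold change over both sexes was 0.78 ± 0.22 (SE, edgeR adjusted p = 0.112). Snord15b had 207, 171 and 27 counts in KO females, against 17, 88 and 11 counts in WT females. Among males there were 4, 14 and 15 counts in the KO libraries, against 6, 4 and 2 counts in the WT libraries. The 3 high libraries are the 3 that were high in rRNA, and as CPM the highest library was 132 times the lowest, against 7.07 times for Snord15a. The fold change of 1.70 ± 0.73 (log2, SE, edgeR adjusted p = 0.341) was set across that range, and it was 2.80 without WT female 2 and 1.36 to 2.03 without any other single library. Their host Rps3 had 304 ± 17.8 CPM in KO females and 285 ± 60.6 CPM in WT females (SD, n = 3 each), and its log2 fold change over both sexes was 0.07 ± 0.09 (SE, edgeR adjusted p = 0.792).

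The short Snora26 had 0.821, 1.11 and 0.0373 CPM in KO females, against 0.0545, 0.0251 and 0.100 CPM in WT females, and 0.0179 to 0.188 CPM in males. Only KO females 1 and 2 were high. The Dancr-length Snora26 gene, by contrast, had 2.19 to 3.04 CPM in KO females, against 2.27 to 2.74 CPM in WT females, and 2.12 to 2.24 CPM in KO males, against 2.04 to 2.50 CPM in WT males. It was the steadiest member, with a highest library 1.49 times its lowest, and its log2 fold change was 0.00 ± 0.12 (SE, edgeR adjusted p = 0.995).

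Of the other abundant box H/ACA members, Snora23, from the nuclear import gene Ipo7, had 1.57, 1.96 and 1.66 CPM in KO females, against 0.999, 0.528 and 1.14 CPM in WT females. Its male levels were 0.637, 3.80 and 2.90 CPM in the KO libraries, against 2.24, 1.44 and 0.788 CPM in the WT libraries. KO females were above WT females, while KO male 1 was the lowest male. The log2 fold change was 0.83 ± 0.37 (SE, edgeR adjusted p = 0.352). Snora68 had 2.01, 1.35 and 1.27 CPM in KO females, against 0.672, 0.830 and 0.836 CPM in WT females, and differed by 0.63 ± 0.22 over both sexes (log2, SE, edgeR adjusted p = 0.224). Snora78, from Snhg9, had 1.96, 2.08 and 1.60 CPM in KO females, against 1.09, 1.33 and 1.50 CPM in WT females, and differed by 0.30 ± 0.17 (log2, SE, edgeR adjusted p = 0.476). KO females were above WT females without overlap for both. In males the groups of both overlapped, with Snora68 at 0.426 to 0.819 CPM in KO and 0.447 to 0.604 CPM in WT and Snora78 at 0.513 to 0.614 CPM in KO and 0.412 to 0.639 CPM in WT.

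The other abundant box C/D members had smaller differences than Snord17, Snord22 and the U15 pair. Snord104 had 1.76, 1.70 and 1.62 CPM in KO females, against 1.02, 1.33 and 1.49 CPM in WT females, without overlap in females, and a log2 fold change over both sexes of 0.20 ± 0.15 (SE, edgeR adjusted p = 0.622). Snord118 (U8), which acts in maturation of 5.8S and 28S rRNA, had 0.867, 0.897 and 0.429 CPM in KO females, against 0.363, 0.377 and 0.585 CPM in WT females. Levels in males were 0.584, 1.49 and 1.36 CPM in the KO libraries, against 1.17, 0.769 and 0.573 CPM in the WT libraries. The groups overlapped in both sexes, and the log2 fold change was 0.57 ± 0.29 (SE, edgeR adjusted p = 0.413). Snord13 (U13), which guides acetylation of 18S rRNA, had 0.502, 0.448 and 0.317 CPM in KO females, against 0.327, 0.679 and 0.401 CPM in WT females, and differed by 0.08 ± 0.25 over both sexes (log2, SE, edgeR adjusted p = 0.930). Snord49a had 0.388, 0.330 and 0.447 CPM in KO females, against 0.363, 0.453 and 0.267 CPM in WT females, and differed by 0.01 ± 0.24 (log2, SE, edgeR adjusted p = 0.997). In males, Snord104 had 1.01 to 1.19 CPM in KO and 0.870 to 1.18 CPM in WT, Snord13 had 0.425 to 0.834 CPM in KO and 0.483 to 0.533 CPM in WT, and Snord49a had 0.205 to 0.319 CPM in KO and 0.251 to 0.355 CPM in WT. The groups of Snord13 and Snord49a overlapped in both sexes.

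The sexes were also compared separately. In females, 37 members were tested and 0 were called by edgeR, against 0.0214% of all genes (0.0107% higher and 0.0107% lower). Without adjustment 11 were under 0.05, all higher in KO, against 7.48% of all genes, and the lowest edgeR adjusted p was 0.178 for Snora74a. The fold changes of 31 of the 37 were above 0, against 51.6% of all genes. DESeq2 called 6 of them higher, namely Snora73a, Snora73b, Snora74a, Snora57, Snord17 and Snord22. The edgeR shares do not apply to this count, and the share of all genes that DESeq2 called in females is not given here. In males, 27 were tested and 0 were called by edgeR, against 0.466% of all genes (0.123% higher and 0.343% lower), with 0 called by DESeq2. Without adjustment 0 were under 0.05, against 11.9% of all genes, and 21 of the 27 were above 0, against 48.8% of all genes. The median log2 fold change was 0.49 in females and 0.33 in males. The effect in males minus females was called for 0 of 41 members by edgeR and by DESeq2, against 0% of all genes in edgeR. Without adjustment 2 were under 0.05, Snora57 and Snord16a, against 4.45% of all genes, and 12 of 41 were above 0, against 45.2%. Its median over the members was -0.39, and 0.06 without the 3 libraries high in rRNA.

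Of the 27 members tested in both sexes, 19 were above 0 in both, 1 was below 0 in both and 7 had opposite signs. All 3 KO females were above all 3 WT females for 15 of 41 members, against 7.72% of all genes tested, while 2 were below, against 6.14% of all genes. All 3 KO males were above all 3 WT males for 1 of 41, Snora47, against 8.22% of all genes, and 2 were below, against 8.78%. Snora47 had only 9, 10 and 8 counts in KO males, against 3, 7 and 4 counts in WT males, and was not tested in the fit of males alone. The share with KO above WT thus stood above that of all genes in females and below it in males. In both sexes at once, KO was above WT without overlap for 0 members, against 1.27% of all genes. It was below WT without overlap in both for 0 members, against 2.18% of all genes.

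**Figure D5:**
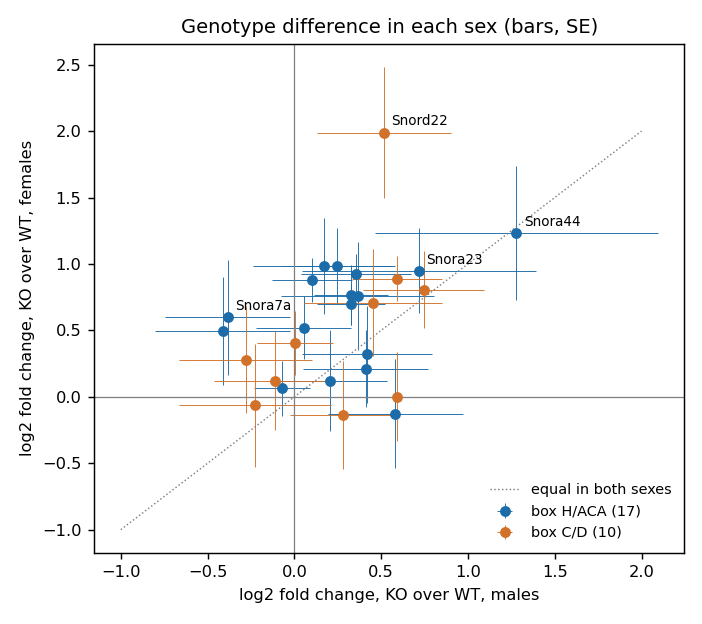
Log2 fold change of KO over WT in females (vertical) and in males (horizontal), each from the fit of that sex with SE bars, for the 17 box H/ACA and 10 box C/D members tested in both; the dotted line marks equal values. The 27 members have medians of 0.60 in females and 0.33 in males, and Snord22 lies highest at 1.99 in females.

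Within the females, KO minus WT could be read in each rRNA class. In the 3 libraries high in rRNA (2 KO, 1 WT) the median difference over the 43 members was 0.58 on the log2(CPM + 0.05) scale, and in the other 3 (1 KO, 2 WT) it was 0.27. The difference was above 0 for 30 and for 31 members, and for 22 in both. Snord17 differed by 1.11 and 0.41, Snora74a by 0.99 and 0.74, Snora57 by 0.97 and 0.74 and Snord22 by 2.48 and 0.45. With 1 library on a side these are values without a test. Members that were higher in all 3 high libraries than in all 3 others were Snora33, Snora34, Snord13, Snord15b and Snord42b, 5 of 43. Shares over all genes are not given for this split, which was chosen after seeing the data. The counts in it therefore describe the members only.

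Female libraries were higher than male libraries for 15 of 41 members (36.6%) and lower for 0 in edgeR over both genotypes, against 23.7% of all genes called, 12.9% higher and 10.9% lower. The differences of 36 of the 41 were above 0, against 49.9% of all genes. Snord37, one of the 15, and Snord83b and Snord87, among the 36, reached 10 counts in female libraries only, so the member rule fixed their direction. Of the 15, 10 were box H/ACA and 5 box C/D members. Snora78 had the lowest adjusted p, with 1.60 to 2.08 CPM in KO females and 1.09 to 1.50 CPM in WT females, against 0.513 to 0.614 CPM in KO males and 0.412 to 0.639 CPM in WT males. Its log2 difference of females over males was 1.53 ± 0.17 (SE, edgeR adjusted p = 4.19e-05), and the largest difference among those called was that of Snord15b (3.84 ± 0.77, log2, SE, edgeR adjusted p = 0.00424). Snord15b had 2.21 to 4.72 CPM in the 3 female libraries high in rRNA. It had 0.184 to 0.503 CPM in the other female libraries, which overlapped the males at 0.0358 to 0.256 CPM. Snord118 (-0.78 ± 0.29, log2, SE, edgeR adjusted p = 0.0661) and Snora23 (-0.61 ± 0.37, log2, SE, edgeR adjusted p = 0.265) lay in the other direction without passing. The tables of the sexes were deposited apart and Rn7sk, an RNA of the transcription elongation machinery, was at 12518 to 18149 CPM in KO females and 10136 to 13803 CPM in WT females, against 5468 to 7025 CPM in KO males and 5358 to 7345 CPM in WT males. Sex and library preparation therefore cannot be told apart.

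Host genes were compared with their members. In the annotation, 37 of 43 members lay inside a gene on their strand and 6 did not, and for 33 tested members a host was also tested, in 27 distinct genes of which 11 encode ribosomal proteins. Of these hosts, 0 were called by edgeR and 0 by DESeq2, and the lowest edgeR adjusted p was 0.245, for Ipo7. Without adjustment 2 were under 0.05 in edgeR, against 13.7% of all genes tested. Host log2 fold changes ran from -0.13 to 0.29 with a median of 0.06, and 25 of the 27 were above 0. The members in them ran from -0.48 to 2.05 with a median of 0.30, and the highest was the short Snora26, whose direction the member rule fixed. In 23 of 33 pairs the member's value was above the host's. Of the 43 members, 13 overlapped an exon of a host transcript in the annotation, so reads there could be assigned to either gene. Estimates for members of the same host were not always alike. In Snhg12, Snora44 had 1.26 ± 0.50 and Snora16a 0.23 ± 0.32. In Kansl2, Snora34 had 0.36 ± 0.24 and Snora2b -0.34 ± 0.28 (log2 fold changes over both sexes, SE). Counts per library were 1 to 31 for Snora44, 5 to 12 for Snora16a, 8 to 22 for Snora34 and 6 to 19 for Snora2b. None of these members was called by edgeR, and the differences between them were not tested.

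Genes for the proteins that bind snoRNAs were read from the same counts, and no protein was measured. Of the box C/D core proteins Fbl (the methyltransferase), Nop56, Nop58 and Nhp2l1, 0 of 4 were called by edgeR over both sexes and 0 by DESeq2, with 1 under 0.05 without adjustment and log2 fold changes from 0.03 to 0.12, 4 of 4 above 0. Of the box H/ACA core proteins Dkc1 (the pseudouridine synthase), Nhp2, Nop10 and Gar1, 0 of 4 were called by edgeR or DESeq2 and 0 were under 0.05 without adjustment, with values from -0.10 to 0.13, 3 of 4 above 0. Of 16 assembly and processing factors in the table, such as Nufip1, Ruvbl1, Naf1 and Exosc10, 0 were called by edgeR or DESeq2 and 2 were under 0.05 without adjustment, from -0.05 to 0.15, 13 of 16 above 0. Of 7 other short non-coding RNAs, among them the RNase components Rmrp and Rpph1 and the telomerase RNA Terc, 0 were called by edgeR and 2 were under 0.05 without adjustment, from -0.10 to 1.36. Vaultrc5 was the highest (1.36, edgeR adjusted p = 0.0820) and was called by DESeq2. Of 7 tested Scarna genes, the guide RNAs of Cajal bodies, 0 were called by edgeR or DESeq2 and 0 were under 0.05 without adjustment, from -0.55 to 0.28 with a median of 0.04. A list of known snoRNA hosts had 19 tested genes, mostly without a protein product but with the protein-coding Snrpn and Snurf. Of these, 1 was called by edgeR, against 1.9% of all genes tested (0.374% higher). This was Snhg7, at 1.17 CPM in KO females and 0.585 CPM in WT females and 0.471 CPM in KO males and 0.197 CPM in WT males (group means, log2 fold change 1.10, edgeR adjusted p = 0.0418). For the counts without adjustment in these lists, the share over all genes tested was 13.7%.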

How the data were processed

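The data are RNA-seq libraries of E15.5 brain. The authors trimmed reads to equal length with FASTX-toolkit and removed adapters with cutadapt 2.6, used HISAT2 2.1.0 for alignment to mm10 (GRCm38) and StringTie 2.0.6 with the Ensembl 81 models, and deposited whole-number counts per gene from the StringTie script prepDE, which derives them from coverage and read length rather than counting reads. Filters and the strand setting are not given in the sources used here. Totals were 40398665 to 59304196 counts, and PCR copies are not removed, so counting error is a lower limit.

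Counts were tested with edgeR 4.0.16 (R 4.3.3; TMM, filterByExpr with at least 10 counts, robust quasi-likelihood F test, Benjamini-Hochberg over all genes, threshold 0.05), and SE was taken as the log2 fold change over the square root of F. The edgeR step was tested on simulated data. Alternatives were DESeq2 1.42.0, RLE scaling, other filters and totals, a block on replicate number and leaving out single libraries. Leaving out or modelling the 3 libraries high in rRNA (over 2% on mt-Rnr1 and mt-Rnr2) and the Rny and Hox covariates were added after seeing the data. Positions and sequences came from GENCODE M21 on GRCm38. Figures were drawn with matplotlib 3.10.9 in Python 3.11.15.

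Members and lists were chosen with earlier results of these data known. Members named in full are those called, the 8 most abundant of each family by mean CPM and 3 on each side of the count threshold, with their hosts; any other gene was picked once its values were known.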

Additional observations from a re-analysis of the deposited data

How the results depend on the processing

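Depth limits the lowest members most, since 13 of 43 reached 10 counts in only 3 to 5 libraries. The number of members called higher over both sexes (1) was 5 in DESeq2, whose shares over all genes are not given here. It was 0 with no filter, 0 with the replicate number as a block, 0 without the 3 libraries high in rRNA, 0 with these as a batch term, 0 with the Rny covariate and 0 with the Hox covariate. The log2 fold change of Snord17 was 0.74 with no filter (edgeR adjusted p = 0.0501) and 0.70 with the block (edgeR adjusted p = 0.115). Replicate numbers did not pair the libraries, as same-numbered KO and WT libraries correlated from -0.087 to 0.29. A filter of more than 1 CPM in 3 libraries left fewer members, so its values are not for the same set as above. Its median log2 fold change was 0.60 over both sexes and 0.88 in females. Of the members left by it, 8 were called higher in females than in males. In females the members called higher were 6 in DESeq2, and the median was 0.27 without the 3 libraries high in rRNA and 0.34 with them as a batch term. The median of the effect in males minus females was 0.060 without them. DESeq2 called 1 member lower in females than in males. The difference of the family medians (0.26) was -0.076 with 20 or more counts in 3 libraries and 0.10 with 10 or more counts in 6 libraries. The sign turned for the Dancr-length Snora26 gene without the 3 libraries (0.00063), for Snord13 with the batch term (-0.012) and the Rny covariate (-0.16), and for Snord49a with the batch term (-0.0093). Leaving out each library in turn gave 0 to 3 members called over both sexes and 0 to 2 in females, medians of 0.34 to 0.74 in females, 0.16 to 0.45 in males and -0.50 to -0.17 for males minus females, and 9 to 14 members higher and 0 to 2 lower in females than in males. It gave log2 fold changes from -0.059 to 0.042 for the Dancr-length Snora26 gene, -0.071 to 0.25 for Snord13, -0.086 to 0.11 for Snord49a and -0.36 to 0.13 for Snord16a. Shares over all genes are not given for the calls in these other settings. The causes were not tested.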
